A study of Drosophila melanogaster with 8 samples.

Results

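The miR-9 and miR-79 guides of Drosophila S2 cells were examined as 5 arms chosen by name, mir-9a-5p, mir-9b-5p, mir-9c-5p, mir-79-3p and mir-4-3p. All 5 had a line in the tables, out of 262 mature arms with a line. S2 is an established fly line of embryonic, blood-cell-like origin. The labels describe 8 samples of small RNA in 4 genotypes of 2 samples each, namely cells with the nbr gene knocked out (nbrKO), nbrKO cells expressing wild-type Nbr, nbrKO cells expressing a catalytically inactive Nbr, and wild-type cells. RNA of 18 to 30 nt was sequenced. Nbr (Nibbler) is an exoribonuclease that trims the 3′ ends of some microRNAs (miRNAs), and the series asks how its loss and return change small RNA lengths. The tables name 8 libraries by the numbers 81154 to 81161, and 0 of these 8 numbers occur in the labels. A genotype could therefore be given to none of the libraries. Values stand for single libraries, or for the median with the lowest and highest library, without a comparison of genotypes or a replicate error. Arms are spelled as in the tables.

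A miRNA finds its targets mainly through its seed, the bases 2 to 8 from its 5′ end. miR-9 is conserved between flies and vertebrates, and fly miR-9a is known for limiting the number of sensory organ precursors by repressing senseless. The miR-79 and miR-4 guides come from the 3p arm of their hairpins and carry a seed related to the Brd box, a motif in the 3′ untranslated regions of Notch-pathway mRNAs. The miR-9 and miR-79 hairpins are related in sequence, so that the guide lies on opposite arms of similar hairpins.

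The tables list the first 8 bases of each arm at its main start position. These are shown here because they sort the arms into a miR-9 type and a miR-79 type, with the seed in capitals and T written for U.
mir-9a-5p: tCTTTGGT
mir-9b-5p: tCTTTGGT
mir-9c-5p: tCTTTGGT
mir-79-5p: gCTTTGGC
mir-79-3p: tAAAGCTA
mir-9c-3p: tAAAGCTT
mir-9b-3p: tAGAGCTT
The 3 miR-9 guides were identical over the 8 listed bases, and no other arm in the tables was listed with their seed. Counted from base 1 at the 5′ end, the start of mir-9c-3p differed from that of mir-79-3p only by A8T. The mir-9b-3p start differed from the mir-9c-3p start only by A3G. The listed start of mir-4-3p shares a run of 7 bases with mir-79-3p, displaced by 1 base, and its letters are not shown.

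Positions refer to dm6 and come from Ensembl release 115 (assembly BDGP6), which held the gene IDs of all 5 hairpins. The hairpins mir-9c, mir-306, mir-79 and mir-9b lie in this order on the plus strand of 2L within 911 bases, inside introns of grp, which encodes the fly Chk1 checkpoint kinase. mir-9c occupies 2L, 16697924 to 16698015, in the intron before the one that holds the other hairpins. mir-79 occupies 16698554 to 16698650 and mir-9b 16698744 to 16698834, with 93 bases between them. mir-306, at 16698404 to 16698488, is no member but shares this host gene and serves below as the neighbour. mir-9a lies away from the cluster, on the plus strand of 3L at 19565131 to 19565208, and overlaps an exon of lncRNA:CR45916. The mir-4 hairpin is on the minus strand of 2R at 19661289 to 19661369 and overlaps an exon of lncRNA:CR44504. The main start of each member in the tables was the annotated 5′ end of the mature miRNA, so the length differences described below are differences at the 3′ end.

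The libraries held 17145872 to 32958242 small RNA reads, of which 34.7 to 44.3% were miRNA reads. Levels are the authors' reads per 1e+06 small RNA reads (RPM), and the limit set by a count of 0, which is 3 reads, equals 0.0910 to 0.175 RPM. The neuronal mir-124-3p, which S2 cells should lack, had a median of 0.108 RPM. It was highest in 81156 and 81157, at 0.334 and 0.330 RPM from 11 and 8 reads, and had at most 3 reads in each other library. The muscle miRNA mir-1-3p had 2.16 RPM at the start with most reads, with a mean length of 18.8 nt, and let-7-5p, which rises at metamorphosis, had 8.90 RPM. A mismatch class described below made up 74.6% of its reads, and the median without that class was 2.08 RPM. The RNA is from bulk cells, so fewer cells with an arm and less of it per cell cannot be told apart.

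Of the 5 guides, 3 were abundant and 2 were rare. Together they held 49726 to 73925 reads per library, or 0.560 to 0.802% of the miRNA reads. Their summed level had a median of 2877 RPM and lay between 1976 RPM in library 81156 and 3224 RPM in library 81159. mir-79-3p supplied the largest part, with a median of 49.6% of the summed reads (45.3 to 54.7%). mir-9b-5p supplied 31.8% (22.1 to 38.5%) and mir-9c-5p 18.3% (15.3 to 23.8%). mir-4-3p and mir-9a-5p stayed at or below 0.167% and 0.0816%.

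**Figure D1:**
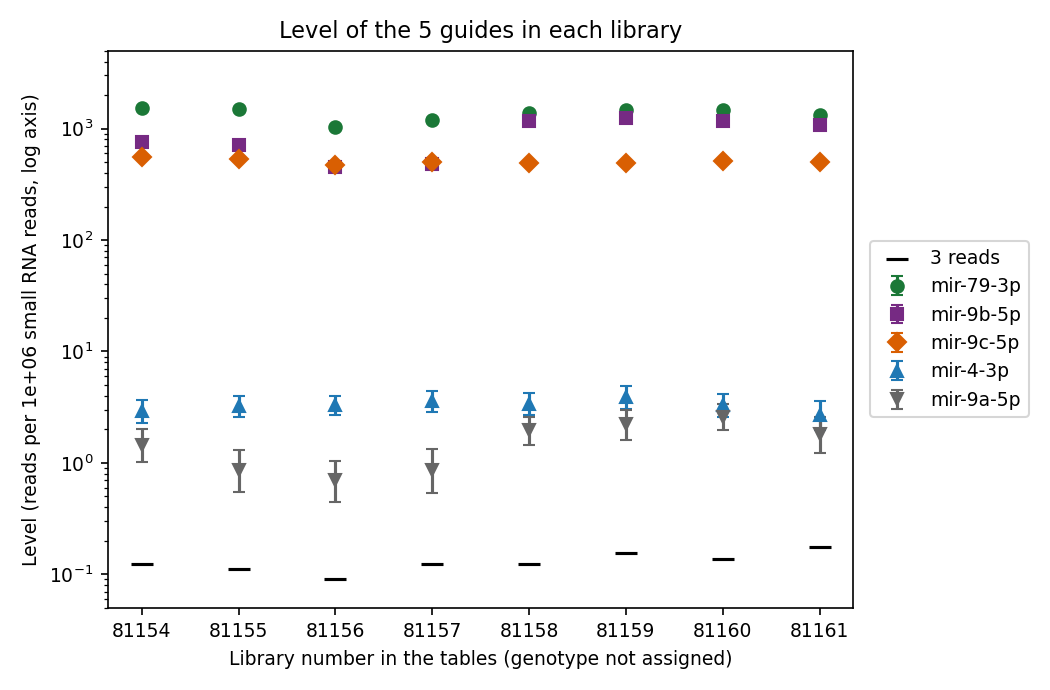
The level of each of the 5 guides is plotted per library in RPM on a log axis. Points are single libraries, bars are exact 95% Poisson intervals for counting error, and black dashes mark the level of 3 reads. mir-79-3p, mir-9b-5p and mir-9c-5p lie between 457 and 1541 RPM and mir-4-3p and mir-9a-5p between 0.698 and 3.90 RPM, all above the 3-read level.

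mir-79-3p, the guide with the Brd-box-related seed, had 1541, 1491, 1045, 1195, 1392, 1484, 1469.5 and 1312 RPM in libraries 81154 to 81161, in numerical order. It was the highest of the 5 guides in each of the 8 libraries, and it was lowest in 81156 and 81157. Its highest library exceeded its lowest 1.48-fold, on 22502 to 39790 reads per library.

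mir-9b-5p, one of the miR-9 guides, had 754, 712, 457, 484, 1179, 1241, 1175 and 1083 RPM in the same order. Libraries 81156 and 81157 were lowest, 81154 and 81155 intermediate, and 81158 to 81161 highest. The span was 2.72-fold, on 11751 to 28378 reads per library. The 95% counting intervals of the extremes, 1226 to 1257 RPM in 81159 and 449.6 to 464 RPM in 81156, lie far apart, but how far libraries of the same genotype differ could not be measured.

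mir-9c-5p, the miR-9 guide from the first hairpin of the cluster, had 554, 531, 471, 503, 496, 493, 515 and 501 RPM. It was nearly level over the libraries, with a span of 1.18-fold on 8583 to 15518 reads. mir-9b-5p exceeded mir-9c-5p in 6 of 8 libraries, by up to 2.52-fold in 81159, and was below it in 81156 and 81157, where the ratio was 0.970 and 0.963. This ratio, in which the denominator of the library cancels, spanned 2.62-fold.

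Set against the 100 arms with a mean of at least 10 RPM, only the 3 abundant guides could be counted. A span of 2-fold or more was reached by 30.0% of these arms and by 1 of the 3 guides, mir-9b-5p, which ranked 12 of 100. mir-79-3p ranked 64 and mir-9c-5p 96. The median span was 1.48-fold over the 3 guides and 1.61-fold over all 100 arms. With 3 guides, 1 wide span is close to the share among all arms.

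The rare guides rested on few reads. mir-4-3p had 2.90, 3.22, 3.31, 3.58, 3.41, 3.90, 3.31 and 2.68 RPM in libraries 81154 to 81161, from 46 to 109 reads. The 95% intervals of its extremes were wide and overlapped, 3.06 to 4.88 RPM in 81159 and 1.96 to 3.58 RPM in 81161. mir-4 belongs to the miR-309 cluster, known for expression in the early embryo. Of the 8 listed arms of its neighbours in that cluster, 4 had medians near that of mir-4-3p, namely mir-3-3p at 2.89 RPM, mir-286-3p at 2.93 RPM, mir-5-5p at 3.84 RPM and mir-5-3p at 4.35 RPM. mir-309-5p at 0.326 RPM, mir-3-5p at 0.173 RPM and mir-309-3p at 0.0865 RPM were lower, on at most 12 reads per library. mir-6-3p, which has 3 hairpin copies in the cluster, was higher at 16.9 RPM.

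mir-9a-5p, the best studied fly miR-9, was the rarest of the 5 in every library, although its 95% interval overlapped that of mir-4-3p in 81160 and 81161. It had 1.45, 0.862, 0.698, 0.865, 1.95, 2.23, 2.58 and 1.81 RPM, from 21 to 57 reads. Its values were highest in 81158 to 81161, the libraries in which mir-9b-5p was highest as well, and lowest in 81156. The 95% intervals of the extremes do not overlap, 0.442 to 1.05 RPM in 81156 and 1.96 to 3.35 RPM in 81160. Counted against mir-9b-5p, the level was 1.21 to 2.20 reads per 1000 mir-9b-5p reads, a 1.82-fold span. Counted against mir-9c-5p, it was 1.48 to 5.02 reads per 1000, a 3.38-fold span. The 3 guides start with the same bases, and the sources used here do not say how reads matching more than 1 of them were assigned. The part of this in the values was not tested.

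Both arms of the cluster hairpins were listed, which allowed guide and opposite arm to be compared within a hairpin. The opposite arms of mir-9a-5p and mir-4-3p have no line in the tables and were not analysed here. For mir-79 the guide arm mir-79-3p took 97.7 to 98.6% of the reads of both arms. For mir-9b the 5p guide took 84.7 to 92.2%. For mir-9c there was almost no difference between the arms, with 48.0 to 52.7% of reads on mir-9c-5p, although the tables call the 5p arm mature and the 3p arm star.

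mir-9c-3p, the arm with the miR-79 type of start, thus reached the level of a guide. It had 599.7, 527, 428, 451, 503, 482, 542 and 468 RPM in libraries 81154 to 81161, close to the 471 to 554 RPM of mir-9c-5p. The highest library was 81154 and the lowest 81156. mir-9c-5p exceeded mir-9c-3p in 5 of 8 libraries. In 81155, 81158 and 81159 the arms were equal within counting error. There the 95% Wilson intervals of the 5p share were 49.6 to 50.8%, 49.0 to 50.3% and 49.8 to 51.3%. In 81154 the 5p share was 48.0% (95% Wilson interval 47.4 to 48.6%) and in 81157 it was 52.7% (52.1 to 53.4%), so the arm in excess changed between libraries beyond counting error.

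Summed by the type of start, mir-79-3p and mir-9c-3p together outnumbered the 3 miR-9 guides in all 8 libraries. These 2 share bases 2 to 7, which mir-9b-3p does not, and the third arm listed with those bases, mir-4978-5p from another hairpin, had a median of 1.02 RPM and was left out. The ratio was 1.64, 1.62, 1.59, 1.67, 1.13, 1.13, 1.19 and 1.12 in libraries 81154 to 81161. It was lower in 81158 to 81161, where mir-9b-5p made up 68.3 to 71.5% of the miR-9 guide reads, than in the other libraries, where it made up 49.0 to 57.6%. With mir-9b-3p added to the miR-79 type the ratio was 1.19 to 1.75. The miR-9 sum held only the 3 guides, which are alike at all 8 listed bases. mir-79-5p, which shares bases 2 to 7 with them, was not added to that sum and had 20.5 to 34.5 RPM.

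The opposite arm of mir-9b-5p did not span as far as the guide. mir-9b-3p had 81.5, 93.9, 79.7, 87.2, 113, 105, 104 and 104 RPM in libraries 81154 to 81161, a 1.41-fold span. The ratio of mir-9b-5p to mir-9b-3p reads was 9.25, 7.59, 5.73, 5.55, 10.5, 11.8, 11.3 and 10.4. It was lowest in 81156 and 81157, the libraries with the least mir-9b-5p, and its span was 2.13-fold. For mir-79 the ratio of mir-79-3p to mir-79-5p reads was 72.6, 72.9, 43.1, 50.4, 46.1, 49.8, 42.6 and 42.4, highest in 81154 and 81155. The opposite arm mir-79-5p itself had 20.5 RPM in 81155, its lowest library, and 34.5 RPM in 81160, its highest. The ratio of the arms spanned 1.72-fold for mir-79, 1.86-fold for mir-306 and 1.21-fold for mir-9c.

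**Figure D2:**
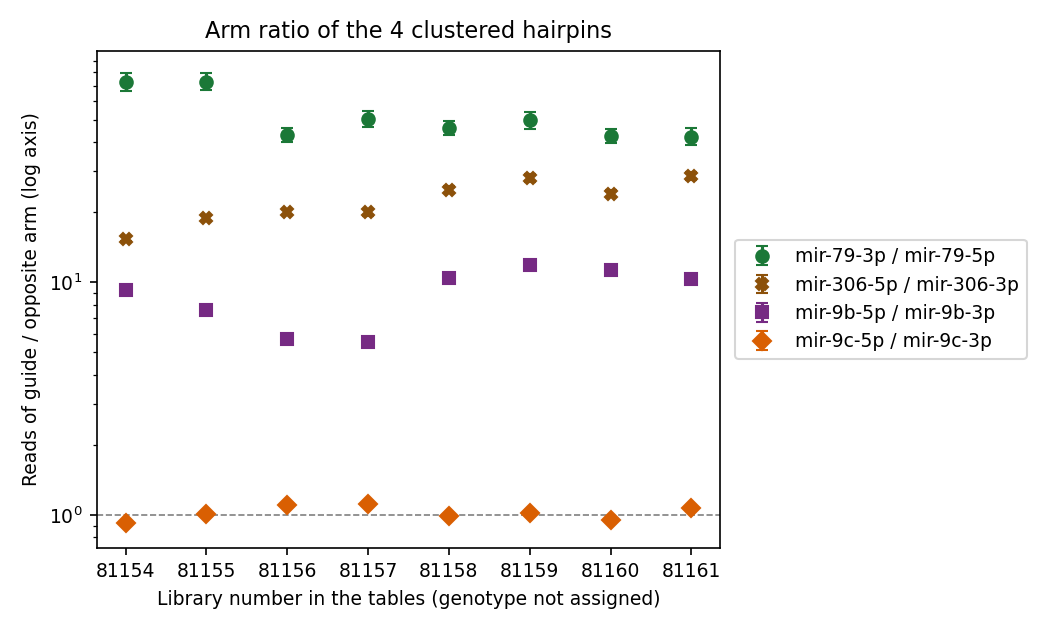
The ratio of guide reads to opposite-arm reads is plotted per library on a log axis for the 4 hairpins of the 2L cluster, with 95% Wilson intervals for counting error. The dashed line marks equal arms. miR-9c lies at 0.924 to 1.12 in all libraries and miR-9b between 5.55 and 11.8, lowest in 81156 and 81157.

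The guides next to it in the host gene were steadier than mir-9b-5p. mir-306-5p, the guide of mir-306, had a median of 3509.8 RPM and a span of 1.202-fold, and its opposite arm mir-306-3p had a median of 149 RPM and a span of 1.90-fold, highest in 81154. Likeness of pattern was measured over the 8 libraries as the median absolute difference in log2 of the level over the arm's own median. For mir-9c-5p the 3 closest of the other 99 arms were mir-988-3p (0.031), mir-306-5p (0.036) and mir-79-3p (0.057), and both mir-306-5p and mir-79-3p come from its host gene. For mir-79-3p they were mir-965-3p (0.035), mir-306-5p (0.047) and mir-277-3p (0.052). For mir-9b-5p they were mir-184-3p (0.062), mir-4961-5p (0.10) and mir-79-5p (0.13), of which only mir-79-5p, an opposite arm, comes from its cluster. The median over all other arms was 0.18 for mir-9c-5p, 0.24 for mir-79-3p and 0.43 for mir-9b-5p. The arms of a library share its denominator.

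The guides differed in how uniform their 3′ ends were. mir-79-3p was almost a single species. Its annotated length is 22 nt, and reads of 22 nt made up 90.2, 90.0, 90.8, 92.0, 91.7, 92.6, 93.3 and 92.7% of its reads in libraries 81154 to 81161. Reads longer than 22 nt made up at most 0.878% in any library. The mean length was 21.89 to 21.93 nt, a range of 0.0409 nt against a largest counting SE of 0.00256 nt, and this range ranked 96 of 100 arms from the widest.

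mir-9c-5p, also annotated at 22 nt, had 54.7 to 67.2% of its reads at that length. Most of the rest were 21 nt, with 35.1, 37.7, 33.3, 34.8, 28.4, 28.9, 23.5 and 25.2% in libraries 81154 to 81161. The 21 nt share was highest in 81155 and lowest in 81160, and every value from 81154 to 81157 exceeded every value from 81158 to 81161. The mean length ranged by 0.185 nt, from 21.62 to 21.80 nt, which ranked 54 of 100. Its partner mir-9c-3p had similar ranges, with 22.5 to 35.2% of reads at 21 nt and 61.2 to 74.4% at 22 nt. The 21 nt share of mir-9c-3p did not divide the libraries in this way. It was 30.3% in 81158, above the 25.6% in 81154 and 25.7% in 81157.

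mir-9b-5p was the longest and the most variable of the 3. Its annotated length is 23 nt, but reads of 23 nt made up 24.1, 23.4, 45.2, 43.4, 27.5, 26.8, 47.5 and 49.0% of its reads in libraries 81154 to 81161. Reads of 22 nt made up 64.4, 64.7, 39.6, 41.2, 58.0, 60.2, 34.9 and 34.6%. In 81154, 81155, 81158 and 81159 the 22 nt form was the commonest, and in 81156, 81157, 81160 and 81161 the 23 nt form was. The 95% Wilson intervals of these shares were narrow, for example 23.5 to 24.7% for the 23 nt share in 81154 and 44.4 to 46.0% in 81156.

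The ends of the distribution split the libraries in the same way. Reads of 24 nt or longer made up 6.94, 6.88, 12.7, 12.7, 8.65, 7.55, 15.0 and 13.7% of mir-9b-5p reads in libraries 81154 to 81161. Reads of 21 nt or shorter made up 4.53, 4.96, 2.54, 2.70, 5.84, 5.47, 2.60 and 2.66%. The ratio of 23 nt to 22 nt reads was 0.374, 0.362, 1.14, 1.05, 0.475, 0.446, 1.36 and 1.42. Libraries 81156, 81157, 81160 and 81161 were high in the long reads and in the ratio and low in the short reads, and the values of the other libraries did not overlap with theirs.

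**Figure D3:**
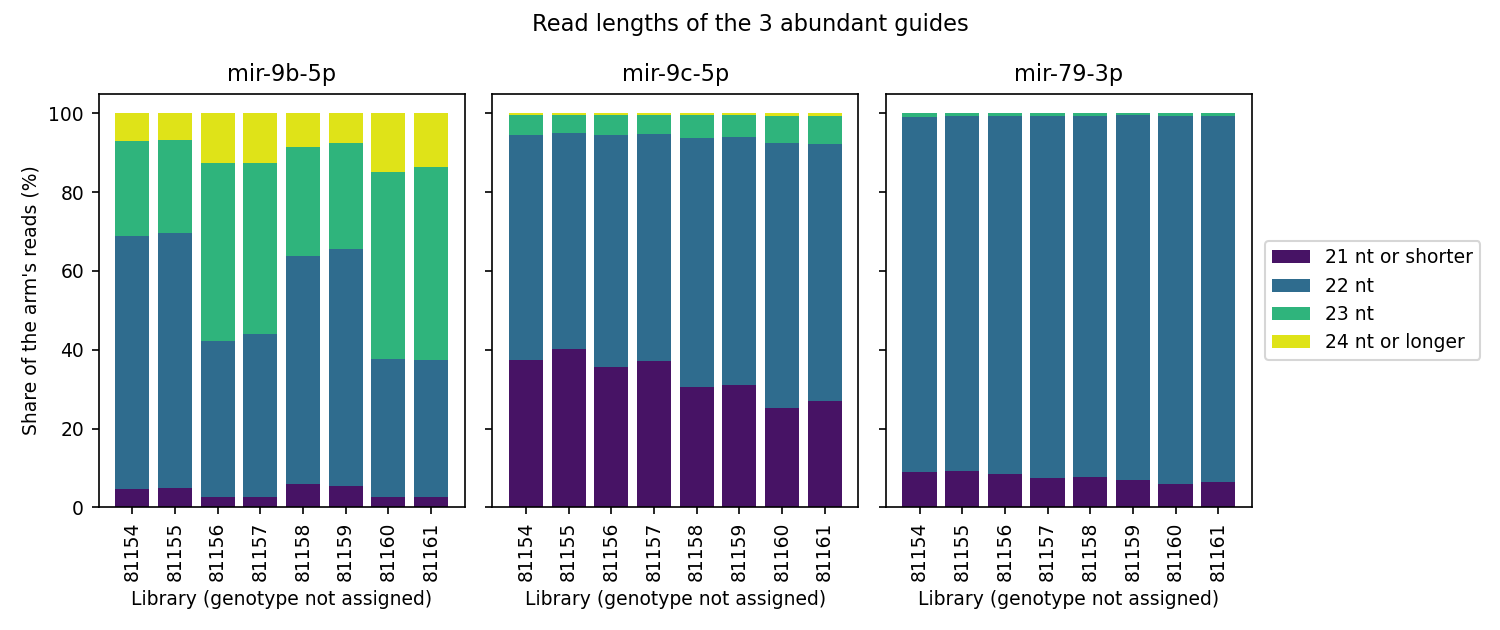
Stacked bars give the share of reads of 21 nt or shorter, 22 nt, 23 nt and 24 nt or longer for mir-9b-5p, mir-9c-5p and mir-79-3p in each library. The 23 nt share of mir-9b-5p is 43.4 to 49.0% in 81156, 81157, 81160 and 81161 and 23.4 to 27.5% in the others, while 22 nt reads of mir-79-3p make up 90.0 to 93.3% in all libraries.

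The length shift of mir-9b-5p and its level did not follow the same libraries. Per length class, the 22 nt form had 486, 461, 181, 199.5, 684, 747, 410.3 and 375 RPM in libraries 81154 to 81161. The 23 nt form had 182, 167, 206, 210.1, 325, 333, 558 and 531 RPM. The 22 nt form was lowest in 81156 and 81157 and highest in 81158 and 81159, whereas the 23 nt form was highest in 81160 and 81161 and lowest in 81154 and 81155. Libraries 81158 to 81161 thus had similar totals made up of different lengths.

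The mean length of mir-9b-5p was 22.31, 22.30, 22.67, 22.65, 22.37, 22.34, 22.75 and 22.73 nt in libraries 81154 to 81161. It was shortest in 81155 and longest in 81160. The range of 0.446 nt compares with a largest counting SE of 0.00772 nt. A range of 0.5 nt or more was found in 12.0% of the 100 arms and in 0 of the 3 guides. mir-9b-5p ranked 16 of 100, and 15 arms had a wider range. The median range was 0.185 nt over the 3 guides and 0.210 nt over all arms.

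The extremes fell in the same libraries in most arms of the cluster. All 8 were shortest in 81155, and 6 of them were longest in 81160, the exceptions being mir-79-5p, longest in 81156, and mir-306-3p, longest in 81161. The median shift over the 100 arms was -0.0890 nt in 81155 and 0.0780 nt in 81160. With each library's median shift taken off, the range of mir-9b-5p narrowed to 0.332 nt and that of mir-9c-5p to 0.117 nt, while that of mir-79-3p widened to 0.126 nt. The opposite arm of the same hairpin, mir-9b-3p, ranged by only 0.108 nt around 21.64 nt.

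**Figure D4:**
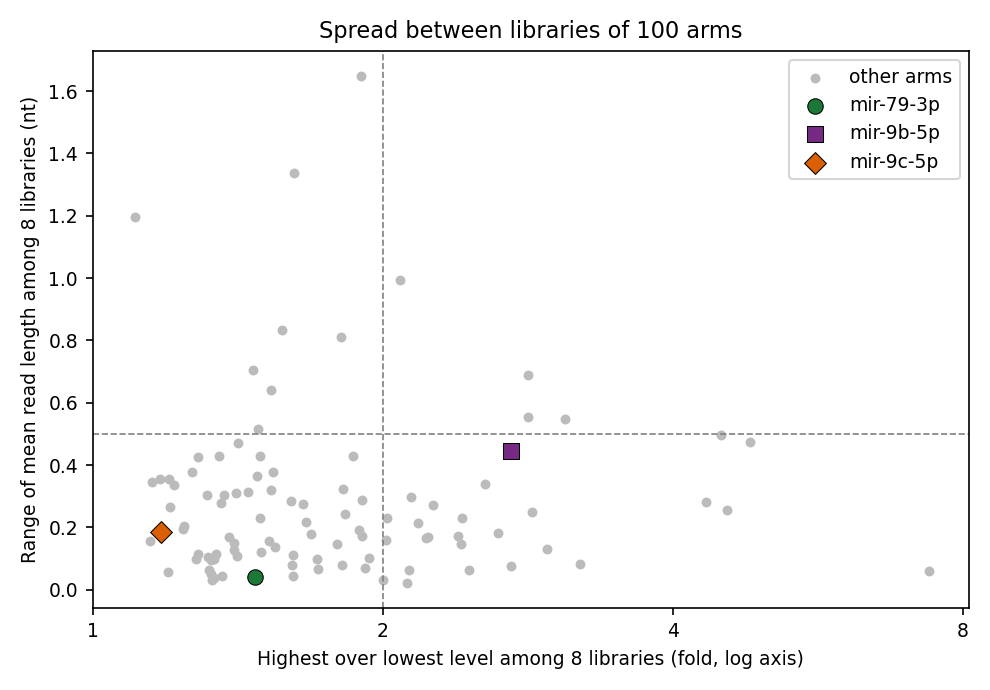
Each point is 1 of the 100 arms with a mean of at least 10 RPM, placed by its highest over lowest level among the 8 libraries (log axis) and by the range of its mean read length in nt. Dashed lines mark 2-fold and 0.5 nt. mir-9b-5p lies at 2.72-fold and 0.446 nt, mir-9c-5p at 1.18-fold and 0.185 nt, and mir-79-3p at 1.48-fold and 0.0409 nt.

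The rare guides had other lengths than annotated, on few reads. mir-9a-5p is annotated at 23 nt, as mir-9b-5p is, but a median of 89.5% of its reads were shorter (65.2 to 93.5%), mostly 21 and 22 nt. Its mean length was 21.26 to 22.09 nt, and the counting SE reached 0.197 nt. In every library its mean was below that of mir-9b-5p. mir-4-3p is annotated at 21 nt, and a median of 67.1% of its reads were longer (50.0 to 77.3%), mostly 22 nt. Its mean length was 21.53 to 21.96 nt, where the counting SE reached 0.106 nt.

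The tables count separately a class of reads marked tc. The labels leave it undefined, and it is read here as T-to-C mismatches. Over the 8 libraries they made up 0.0668% of mir-79-3p reads (95% Wilson interval 0.0575 to 0.0776%), 0.216% of mir-9b-5p reads (0.194 to 0.240%) and 0.188% of mir-9c-5p reads (0.163 to 0.218%). The tables list 4, 10 and 9 T bases for these arms in that order. The share did not follow the number of T bases in every arm, since mir-9b-3p, with 6, had 0.0610% and let-7-5p, with 7, the 74.6% given above. mir-4-3p had 0 such reads of 628 and mir-9a-5p 2 of 280.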

How the data were processed

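Small RNA libraries of S2 cells, with random nucleotides at the adapter ends, were made by the authors, per the labels' protocols. Reads were processed with cutadapt 1.7.1, Bowtie 1.2.2 and Picard on dm6, per the submitters' processing notes. The sources used here do not give mismatch, multi-mapping or filter settings. The deposited tables give a signal per hairpin arm, start position and length. It is in reads per 1e+06 small RNA reads, worked out from the values: multiplied by the library's total it gave whole reads in 100% of lines within 0.001 read. A further deposited table holds other values, the authors' totals of small RNA and miRNA reads.

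A line is an arm of a hairpin at a start position, and only the start with most reads was kept. Hairpin copies of a mature arm listed with the same 8 bases were counted once, at the line with most reads. Copies listed with different bases stayed apart, and abundant lines with identical reads were counted once. This left 262 arms of 289 lines. A mean of 10 RPM or more, with reads in every library, was reached by 100 arms. Read-weighted mean lengths with counting SE and 95% intervals were computed with Python 3.11.15, pandas 2.3.3, numpy 2.4.6 and scipy 1.17.1, and figures with matplotlib 3.10.9. The calculation was tested only on simulated reads in which the whole length distribution of some arms was moved by a full nucleotide. The 0.5 nt limit picked out these arms and no others. Shifts as small as those of the 3 abundant guides were not simulated. Intervals cover counting error only and treat each read as independent. Amplified reads are not independent molecules, so the intervals may be too narrow. Named arms are the members, their opposite arms, cluster neighbours and, per abundant guide, the 3 arms most alike in pattern over the libraries. Also named are mir-124-3p, mir-1-3p and let-7-5p as arms typical of other fly tissues, mir-4978-5p for its seed bases, and mir-34-5p. The members and lists were chosen with earlier results of these data known. Full mature sequences are not shown, as the files used here hold 8 bases per arm. No test between genotypes was made, because no library could be matched to a label.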

Additional observations from a re-analysis of the deposited data

How the results depend on the processing

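No paired analysis was possible because neither a genotype nor a replicate number is known for a library. Leaving out libraries for length shares, arm shares and counts of arms was chosen after seeing the data. Per 1e+06 miRNA reads, the medians became 3482 for mir-79-3p, 2291 for mir-9b-5p, 1337 for mir-9c-5p, 8.41 for mir-4-3p, 4.05 for mir-9a-5p and 7219 for their sum, since the denominator is smaller. The spans became 1.33-fold for mir-79-3p, 2.30-fold for mir-9b-5p, 1.30-fold for mir-9c-5p and 1.43-fold for the sum. With median-of-ratios scaling the medians were 1409 RPM for mir-79-3p, 524 for mir-9c-5p and 2799.6 for the sum, and the spans 1.40-fold for mir-79-3p, 2.51-fold for mir-9b-5p and 1.56-fold for the sum. Over 20 to 26 nt the median mean lengths were 21.92 nt for mir-79-3p, 22.53 nt for mir-9b-5p and 21.72 nt for mir-9c-5p. The median 22 nt share of mir-79-3p was 92.3%. With the library shift taken off, the length ranges were 0.126 nt for mir-79-3p, 0.332 nt for mir-9b-5p and 0.117 nt for mir-9c-5p. Summing all listed start positions changed nothing, since each member has 1. Without tc reads none of the 10 values recomputed moved beyond counting error. Over all alternatives, 245 values stayed within counting error, or within 1.5 times for counts of arms, and 102 moved further. The 102 include the medians per 1e+06 miRNA reads, which are in another unit. They also include medians with 1 library left out, which fall on a single library rather than between libraries. For the other values that moved, the cause was not tested.

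With 1 library left out at a time, medians were taken over the remaining libraries. The median level of mir-9b-5p was 754 to 1083 RPM and its span 2.56 to 2.72-fold. The median of its mean lengths was 22.37 to 22.65 nt and its length range 0.429 to 0.446 nt. Its median 22 nt share was 41.2 to 58.0% and its median share of both arms 90.2 to 91.2%. The median level of mir-79-3p was 1392 to 1469.5 RPM, with a span of 1.29 to 1.48-fold and a length range of 0.0344 to 0.0409 nt. For mir-9c-5p the span was 1.12 to 1.18-fold and the median of the mean lengths 21.67 to 21.73 nt. Its length range was 0.157 to 0.185 nt and its median 22 nt share 58.8 to 63.1%. The median of the sum was 2854 to 2900.2 RPM, spanning 1.47 to 1.63-fold.

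A length range of at least 0.5 nt was found in 12 arms, against 100 of 262 with no abundance minimum. A wider range than that of mir-9b-5p was found in 15 arms, against 108. A span of 2-fold or more was found in 30 arms, against 163, and in 18 of 68 at 100 RPM or more. These differ in the arms counted. Depth limits mir-4-3p and mir-9a-5p, with at most 109 and 57 reads per library.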

Other observations

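Libraries carry no genotype, so the following values are descriptions. The mean lengths of mir-9b-5p fell into separate sets, with no library between 22.37 and 22.65 nt. mir-34-5p, a miRNA known to be trimmed by Nibbler in flies, had mean lengths of 22.33, 22.24, 23.74, 23.82, 22.57, 22.51, 23.89 and 23.84 nt in libraries 81154 to 81161, and no library between 22.57 and 23.74 nt. The length range of mir-34-5p, 1.65 nt, was the widest of the 100 arms. In both mir-9b-5p and mir-34-5p the libraries below the gap were 81154, 81155, 81158 and 81159. The median length shift over the 100 arms of at least 10 RPM was also below 0 in these libraries. It was -0.0474, -0.0890, -0.0164 and -0.0103 nt there. In 81156, 81157, 81160 and 81161 it was above 0, at 0.00623, 0.0145, 0.0780 and 0.0445 nt. The other abundant guides did not split this way. mir-9c-5p was shorter in 81156 and 81157 (21.67 and 21.65 nt) than in 81158 and 81159 (both 21.73 nt). mir-79-3p was shorter in 81156 (21.89 nt) than in 81158 (21.90 nt) and 81159 (21.91 nt). mir-9b-5p had 22.31, 22.30, 22.67, 22.65, 22.37, 22.34, 22.75 and 22.73 nt in libraries 81154 to 81161. The gap was 0.287 nt in mir-9b-5p and 1.17 nt in mir-34-5p. The level of mir-9b-5p split the libraries otherwise, with the widest gap between 754 and 1083 RPM and 81154 to 81157 below it. How the other arms with a wider length range than mir-9b-5p divide the libraries was not examined. No cause was tested.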
